A study of Homo sapiens with 4 samples.

Results

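The genes described here form the switch that carries a cell from G1 into S phase, and they were chosen by name as 10 members of that pathway: the D-type cyclins CCND1, CCND2 and CCND3, the E-type cyclins CCNE1 and CCNE2, the cyclin-dependent kinases CDK4 and CDK6, the retinoblastoma gene RB1, and the kinase inhibitor genes CDKN1B and CDKN2C. They are 10 of 20501 genes to which the array probes could be assigned, and 12 probes read them. The cells were MCF-10A, an immortalised but non-tumorigenic human mammary epithelial line, kept in MEBM medium with bovine pituitary extract, hydrocortisone, EGF, insulin and cholera toxin. From 48 h after seeding they received 10 µM of a peptide labelled stapled-peptide (ST) or of one labelled non-specific stapled-peptide (NS), and RNA was taken 24 h or 48 h later. Each of these 4 conditions was read on 1 single-colour Agilent array, and no array of untreated cells was used here. The study set out to learn which transcripts differ in normal mammary cells between stapled peptides meant to block the binding of BIG3 to PHB2. The labels do not say which peptide of the study each name stands for, and both NS arrays carry control as their treatment, so values are given by array label below.

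In textbook terms, D-type cyclins are made when growth factors act on a cell, bind CDK4 or CDK6, and start the phosphorylation of the RB1 protein. Phosphorylated RB1 lets go of E2F transcription factors, which switch on genes of DNA replication and also the E-type cyclins, and cyclin E with CDK2 then completes the phosphorylation of RB1. CDKN2C encodes an inhibitor that binds CDK4 and CDK6, whereas the inhibitor encoded by CDKN1B acts chiefly on cyclin E-CDK2. In mammary epithelium, CCND1 is best known as a target of EGF and oestrogen signalling and as a gene that is often amplified in breast cancer.

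The NS array at 48 h stood apart from the other 3 arrays. Its signals correlated with theirs at r = 0.799 to 0.807, counting probes that 1 or both arrays of a pair read above background, whereas the other 3 correlated with each other at r = 0.976 to 0.978. All 10 basal mammary markers looked up were more than 2-fold lower on that array than with ST at 48 h, with a median log2 difference of -7.48, and the keratin gene KRT5, a defining gene of basal mammary cells, read 14.65, 14.54 and 14.59 on the other arrays and 5.02 there. The largest difference in this list was that of KRT6A, a bound of -9.60, and the summed log2 level of the list was 16.70 to 16.73 on the other arrays and 8.76 there. Hence the labelled cell type was borne out by basal markers on 3 arrays only. Of 8 genes used as markers of embryonic kidney lines, 5 were higher on the same array, and LIN28B, the largest, was higher by at least 8.98. The other 2 with a fold, PAX2 and L1CAM, named here after their values were seen, were below 0 at their brightest probes. The bounds there were -0.59 and -0.58. Another probe of each gene went the other way, with bounds of 3.89 for PAX2 and 0.11 for L1CAM. HOXA9, named here after its values were seen, differed by 2.88 at its brightest probe and by 0.03 at its other probe. The summed log2 level of this list was 9.63 to 9.73 on the other arrays and 14.7 on the NS array at 48 h. Between the peptides at 48 h, 21.2% of all genes were more than 2-fold higher and 19.8% lower, shares to set beside each marker count. Of the 7 luminal markers, 6 had a fold, and 1 was higher and 2 were lower. Of 5 fibroblast markers, 3 had a fold and 1 was lower, and of 4 blood markers 1 was higher and 2 were lower. The largest differences in these lists were those of KRT8 (-2.79), DCN (-9.15) and CD14 (-3.73), and none of any marker list passed 2-fold at 24 h. PGR among the luminal, COL1A2 and COL3A1 among the fibroblast and PHOX2A among the kidney markers did not reach well above background anywhere. The part of these markers in the G1 gene values was not tested, and neither was the identity of the cells behind the NS array at 48 h. Fewer cells of a type cannot be told apart from less RNA per cell in such bulk samples. Because every comparison at 48 h between peptides, and the comparison of times with NS, uses that array, both are given side by side and neither supports the other.

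Promoter sequence was looked up for the members because E2F binding sites are the textbook feature of genes at this switch. RefSeq sequence upstream of the transcription start, on GRCh38.p14, was at hand for 7 of the 10 members with 12 starts in all, and CCND1, CCND2 and CCNE2 were not among them. Shown are the 250 bases before a start of CCNE1 (chr19:29811741-29811990, plus strand) and CDK4 (chr12:57752311-57752560, minus strand), which read higher on the NS array at 48 h, and of CDKN2C (chr1:50968456-50968705, plus strand), which did not. Each runs 5′ to 3′ towards the start, and capitals mark letters of an E2F motif on either strand.
CCNE1: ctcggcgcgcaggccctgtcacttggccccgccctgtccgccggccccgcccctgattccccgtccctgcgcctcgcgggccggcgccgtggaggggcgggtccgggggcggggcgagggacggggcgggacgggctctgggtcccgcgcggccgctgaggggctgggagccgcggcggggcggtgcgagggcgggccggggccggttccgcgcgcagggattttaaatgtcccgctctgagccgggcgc
CDK4: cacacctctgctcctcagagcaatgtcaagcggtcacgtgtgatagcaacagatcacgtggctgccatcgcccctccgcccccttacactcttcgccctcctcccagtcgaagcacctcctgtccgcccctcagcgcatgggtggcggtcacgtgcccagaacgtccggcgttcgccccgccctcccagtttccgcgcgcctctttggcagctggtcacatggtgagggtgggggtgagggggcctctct
CDKN2C: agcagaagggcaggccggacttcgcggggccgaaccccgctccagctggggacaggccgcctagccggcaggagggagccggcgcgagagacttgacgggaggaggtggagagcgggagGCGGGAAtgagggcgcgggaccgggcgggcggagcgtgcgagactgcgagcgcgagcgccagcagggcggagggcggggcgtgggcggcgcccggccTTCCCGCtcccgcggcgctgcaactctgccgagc
The letters searched, on both strands, were the motif TTCCCGC, its relatives with other C or G letters in the middle, which are TTCGCGC, then also TTGCCGC, and finally TTGGCGC. Of 35116 promoters of this length, 10.9% held at least 1 of them. CDKN2C held TTCCCGC on the plus strand 34 bases and on the minus strand 131 bases before this start, which is 1 of its 3 listed starts, and no other member's listed promoter held a motif. With a further T in front of each motif, a version that 2.79% of promoters held, no member had a match. These letters are a description of this window only, and their bearing on the signals was not tested.

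Signals below are log2 values after quantile normalization over the 4 arrays, and each difference is the value with NS minus that with ST. All 10 members were well above background on all 4 arrays at every probe. With 1 array per condition no test between conditions was possible, so a gene was called where it passed 2-fold, and counts are set beside the share of all genes that did so. At 48 h, 6 of the 10 members passed 2-fold: CCND2, CDK4, CCNE1 and CCNE2 were higher on the NS array, and CCND1 and CCND3 were lower. Of 17112 genes with a fold, 41.0% were called in this comparison, 21.2% higher and 19.8% lower, and among 14042 genes well above background on every array, as all members were, the share was 37.5%. A count of 6 in 10 genes is thus not far from the share over all genes, and what follows describes the members one by one. At 24 h, 0 of the 10 passed 2-fold, where 1.87% of 16228 genes did.

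**Figure D1:**
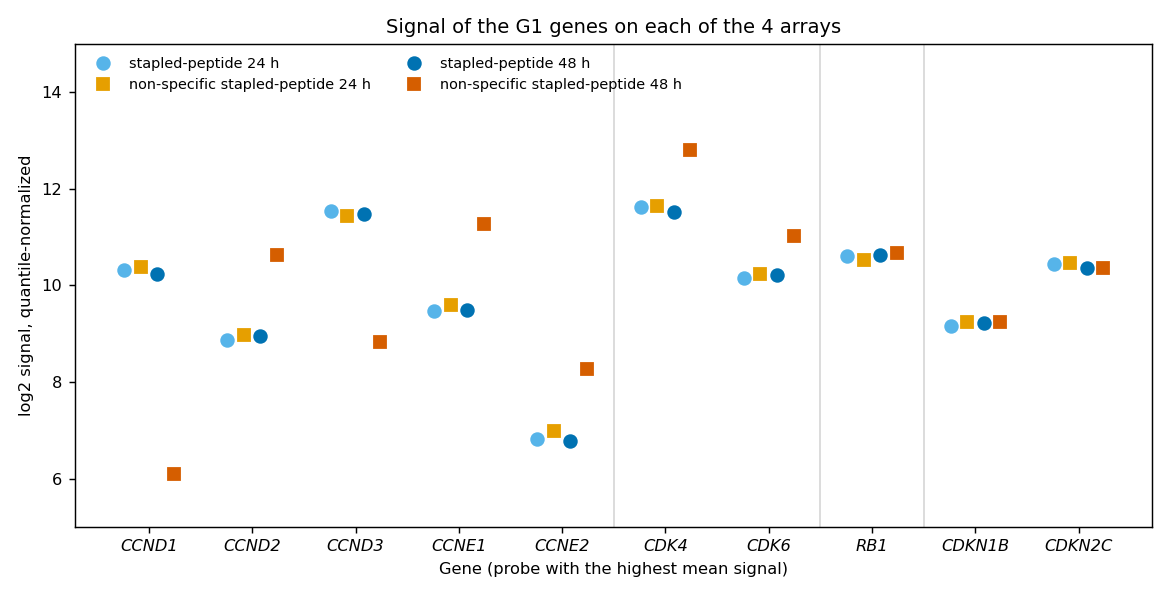
Quantile-normalized log2 signal (y axis) of each of the 10 G1 genes on the 4 arrays (1 point per array, no replicates, so no error bars). For every gene the ST arrays at 24 h and 48 h and the NS array at 24 h span at most 0.21, and the NS array at 48 h is lower for CCND1 and CCND3 and higher for CCND2, CCNE1, CCNE2, CDK4 and CDK6.

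The D-type cyclins split in direction, with CCND1 and CCND3 lower and CCND2 higher on the NS array at 48 h. CCND1 encodes cyclin D1, the D-type cyclin most tied to mammary epithelium. The 24 h arrays gave 10.32 for ST and 10.38 for NS, whereas those at 48 h gave 10.25 and 6.09. That is a log2 difference of -4.15, or 17.8-fold lower, and 3.99% of all genes differed by at least as much in either direction. The CCND1 probe is spotted 10 times on each array, and its spots do not overlap between the last array and the others. Spots of RB1 and CDKN1B, described below, did not overlap between the peptides at 48 h either, so a gap between spots sets arrays apart, not conditions. Before normalization the single CCND1 spots read 10.26 to 10.47 and 10.35 to 10.51 at 24 h, 10.00 to 10.23 with ST at 48 h, and 6.09 to 6.46 with NS at 48 h. The SD over these spots was 0.053 to 0.11 on the 4 arrays, an error of spotting and reading that says nothing about cultures. Spot signal was still 6.88 times the local background on the lowest array, against 63.4 to 75.6 on the others, so the difference is between measured signals and is not a bound.

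CCND3, which encodes cyclin D3, read 11.53 and 11.45 at 24 h, and 11.49 with ST and 8.83 with NS at 48 h. It was 6.29-fold lower on the last array, a log2 difference of -2.65 that 10.3% of genes reached. CCND2, which encodes cyclin D2, went the other way. The 24 h arrays gave 8.87 for ST and 8.98 for NS, and those at 48 h gave 8.95 and 10.62, a difference of 1.67 or 3.19-fold, which 22.1% of genes reached. Set against each other at 48 h, the CCND2 and CCND1 probes diverged by 5.83 on the log2 scale between the peptides. CCND1 and CCND3 were the only members that passed 4-fold at 48 h, where 16.8% of all genes did.

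**Figure D2:**
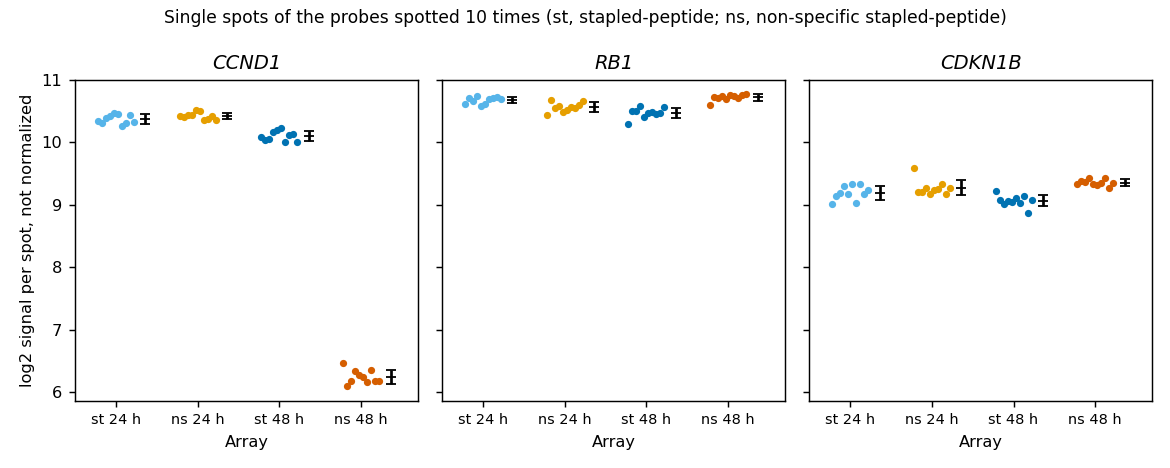
Log2 signals before normalization (y axis) of the single spots of the 3 probes spotted 10 times, one panel per gene, by array (written st and ns), with bars for the mean and SD over spots of 1 array. CCND1 spots on the NS array at 48 h lie at 6.09 to 6.46, below all spots of the other arrays, while those of RB1 and CDKN1B span less than 1 log2 unit over the 4 arrays and, at 48 h, do not overlap between the peptides. Over all genes the median difference at 48 h without normalization was 0.26.

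Both E-type cyclins were higher on the NS array at 48 h. CCNE1, which encodes the cyclin that activates CDK2 at the G1/S boundary, read 9.46 and 9.60 at 24 h and 9.48 with ST and 11.27 with NS at 48 h. The difference of 1.79, or 3.45-fold, was the largest positive difference among the members, and 20.1% of genes reached that size. CCNE2, which encodes the second E-type cyclin, is read by 2 probes. The brighter one, A_33_P3247022, read 6.83 and 6.99 at 24 h and 6.78 and 8.28 at 48 h, a difference of 1.50 or 2.83-fold, reached by 25.7% of genes. The dimmer one, A_33_P3217819, read 5.43 and 4.93 at 24 h and 5.15 and 5.61 at 48 h. Its difference at 48 h was 0.46, smaller than its own range of 0.49 over the other 3 arrays, so the CCNE2 call rests on the brighter probe. Which transcripts of CCNE2 each probe reads was not examined.

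The kinase genes were higher as well, with CDK4 past 2-fold and CDK6 short of it. CDK4, the partner of D-type cyclins in most epithelial cells, gave signals of 11.62 and 11.65 at 24 h, and of 11.52 with ST and 12.80 with NS at 48 h. The difference was 1.29, or 2.44-fold, and 31.4% of genes reached it. CDK6, the other partner of D-type cyclins, read 10.15 and 10.24 at 24 h and 10.22 and 11.02 at 48 h, a difference of 0.80 or 1.74-fold that 50.7% of genes reached. Its value at 48 h lay outside the range of 0.085 that the other 3 arrays spanned, although it was not called. CDK4 and its cyclin partner CCND1 diverged by 5.44 on the log2 scale at 48 h.

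RB1 and the inhibitor genes read nearly the same on the 4 arrays at their brightest probes after normalization. RB1, the brake on E2F factors, read 10.60 and 10.52 at 24 h and 10.63 and 10.67 at 48 h, a difference of 0.04 at 48 h. Before normalization its 10 spots at 48 h read 10.30 to 10.58 with ST and 10.59 to 10.77 with NS and did not overlap, so the near equality depends on the normalization. CDKN2C read 10.45 and 10.47 at 24 h and 10.37 and 10.37 at 48 h, with a difference of -0.0030. For CDKN1B the probe spotted 10 times, A_24_P81841, read 9.16 and 9.24 at 24 h and 9.23 and 9.25 at 48 h. Its difference at 48 h was 0.02, while before normalization its spots read 8.87 to 9.22 with ST and 9.27 to 9.43 with NS, again without overlap. Without normalization RB1 differed by 0.24 and CDKN1B by 0.29 at 48 h, beside a median of 0.26 over all genes. The gap between the spots was thus about that of the whole array. How many other probes have spots without overlap was not counted. The other CDKN1B probe, A_23_P204696, did not match A_24_P81841. It gave 9.16 and 9.09 at 24 h and 9.14 with ST at 48 h, but 8.49 with NS at 48 h, a difference of -0.65 that lay outside its range of 0.065 over the other arrays and short of 2-fold. At least as large a difference as at the named probes was seen for 97.1% of genes with RB1, 98.7% with CDKN1B and 99.8% with CDKN2C. The direction of these small values is not settled, since under other settings RB1 ran from -0.088 to 0.24, CDKN1B from -0.32 to 0.29 and CDKN2C from -0.15 to 0.18.

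**Figure D3:**
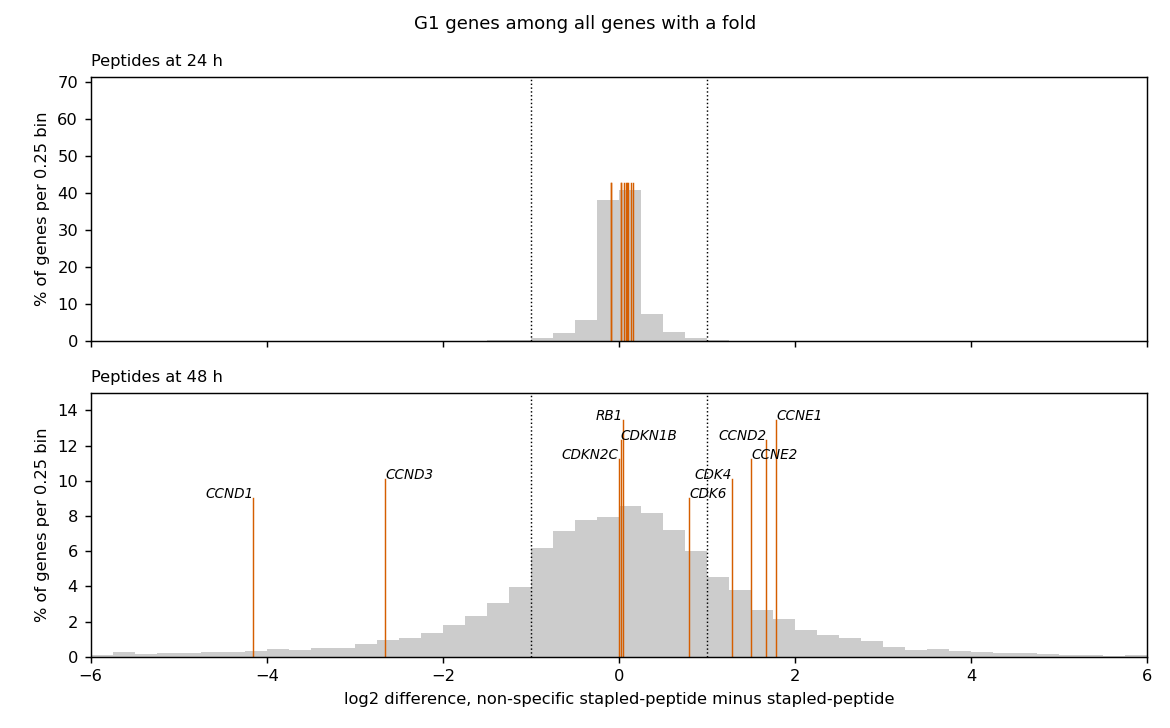
Share of all genes per 0.25-wide bin of the log2 difference between the peptides (x axis, NS minus ST, shown from -6 to 6), at 24 h above and 48 h below, with a vertical line for each of the 10 G1 genes and dotted lines at 2-fold. At 24 h all 10 lines lie between -0.09 and 0.16, and at 48 h they spread from -4.15 for CCND1 to 1.79 for CCNE1, within a broader spread of all genes.

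At 24 h the peptides were hard to tell apart by these genes. The differences of the 10 members ran from -0.09 for CCND3 to 0.16 for CCNE2, with a median of 0.07, and the SD of this difference over all genes was 0.34, against 1.76 at 48 h. CCND1 differed by 0.06 and CDK4 by 0.03. With ST, the change from 24 h to 48 h was as small: 0 of 10 members passed 2-fold, where 2.06% of 16138 genes did, and the largest was that of CDK4 at -0.11. With NS, 6 of 10 members passed 2-fold between 24 h and 48 h, beside 41.3% of 17297 genes. The values were -4.29 for CCND1, -2.61 for CCND3, 1.64 for CCND2, 1.67 for CCNE1, 1.29 for CCNE2, 1.15 for CDK4 and 0.78 for CDK6. RB1 gave 0.15, CDKN1B 0.0031 and CDKN2C -0.11. These numbers share the NS array at 48 h with the peptide comparison at that time.

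Other regulators of the same transition were taken from a list of 30 genes, of which 29 had a probe. At 48 h, 15 of these were more than 2-fold higher, 1 was lower and 13 lay within 2-fold, where 21.2% of all genes were higher and 19.8% lower. The median difference was 1.02, beside 0.42 for the 10 members and 0.03 for all genes. The most increased was CDKN2A, which encodes an inhibitor of CDK4 and CDK6 and lies in a region that MCF-10A cells are known to have lost. At its brightest probe it read 8.77 and 8.64 at 24 h and 8.68 and 14.26 at 48 h, a difference of 5.58. Its other probe, assigned to a different transcript, read 4.44 and 5.05 at 24 h and 5.04 and 12.44 at 48 h, a difference of 7.40. Both probes were well above background on every array despite the known loss, and what they read on the other arrays was not examined. CDKN2A is also in the list of the study that was chosen on these arrays, so its difference is not independent evidence of that direction. CDC25A, the phosphatase that activates CDK2, read 7.05 and 7.09 at 24 h and 7.04 and 11.85 at 48 h, a difference of 4.81. E2F2, an activating E2F factor, was higher by 3.99 and SKP2, the ubiquitin ligase subunit that targets the CDKN1B protein, by 3.34. In the other direction, CDKN1A, the p53-induced CDK inhibitor gene, read 9.24 and 9.18 at 24 h and 9.15 and 6.19 at 48 h. Its difference was -2.96, whereas RBL2, an RB1 relative, gave -0.92, CDKN2B -0.82 and CDKN2D -0.80, all within 2-fold.

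Textbook E2F target genes were higher almost throughout on the same array. Of 15, 14 were more than 2-fold higher, 0 were lower and 1 lay within 2-fold, beside the same 21.2% and 19.8% of all genes. The median difference was 2.47, and CDC6 among them is a bound of at least 2.09. The gene within 2-fold was RRM2, a ribonucleotide reductase subunit, at 0.58, named here after its value was seen. CDT1, a licensing factor for replication origins, read 9.46 and 9.62 at 24 h and 9.47 and 12.72 at 48 h, a difference of 3.25. MYBL2, a transcription factor of the cell cycle, was higher by 2.76 and MCM2, a subunit of the replicative helicase, by 2.71. An E2F motif of the kind defined above stood in a listed promoter of 10 of the 13 target genes that had one (76.9%), beside 3541 of 27305 genes. Of the 7 members with a listed promoter, 1 held a motif. The target genes were listed because they are known E2F targets, so their share says nothing about these arrays. At 24 h, 0 of the 28 regulators and 0 of the 14 targets with a fold passed 2-fold, beside 1.87% of all genes, with medians of 0.06 and 0.07. With NS, 14 regulators were higher and 1 lower at 48 h than at 24 h, and 13 targets were higher, with medians of 0.98 and 2.35. Of all genes, 21.3% were higher and 20.1% lower in that comparison.

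**Figure D4:**
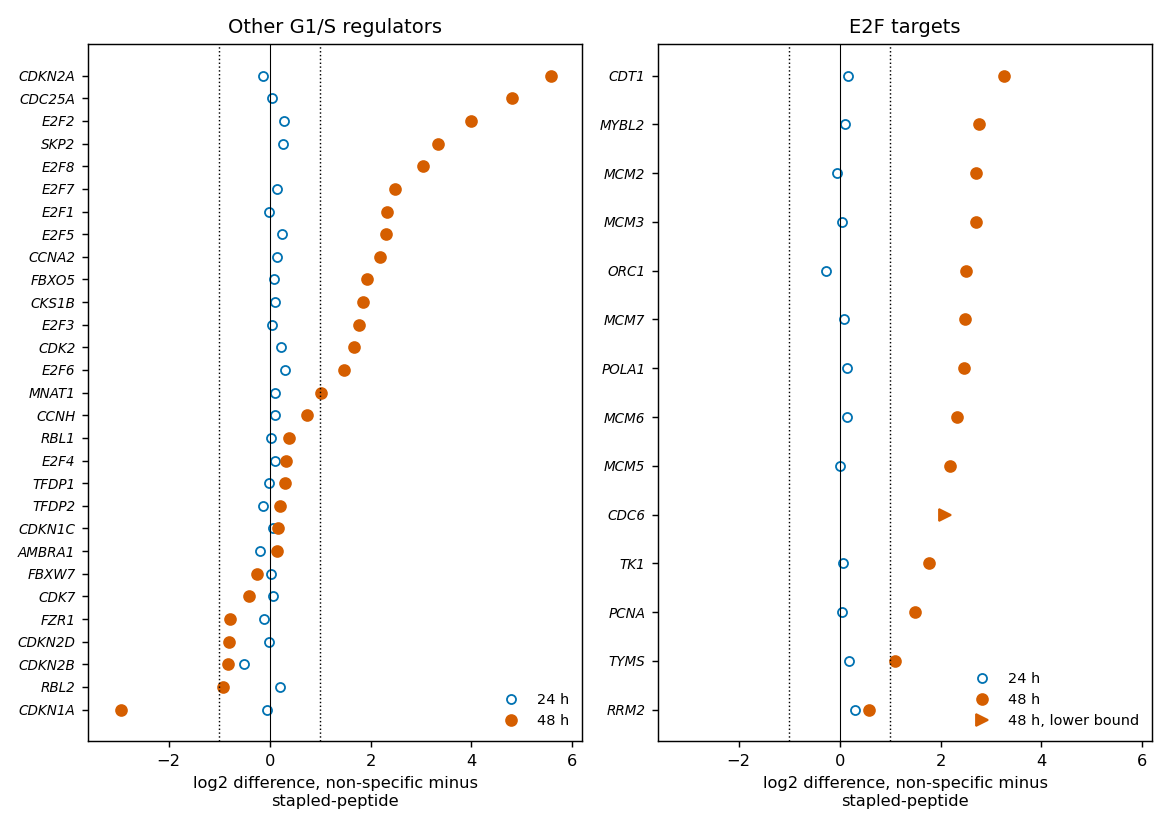
Log2 difference between the peptides (x axis, NS minus ST) of the 29 other G1/S regulators on the left and of 14 E2F target genes on the right, 1 row per gene at its brightest probe, with open circles for 24 h where a fold could be given, filled points for 48 h, a triangle for a lower bound and dotted lines at 2-fold. The points for 24 h lie within 2-fold, and at 48 h CDKN2A is highest at 5.58, CDKN1A is lowest at -2.96, and RRM2 at 0.58 is the target drawn within 2-fold.

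Values of the 10 genes were recomputed under other processing settings to see how far each depends on them. At 48 h CCND1 stayed between -4.19 and -3.28, CCND3 between -2.72 and -2.39, CCND2 between 1.57 and 1.90 and CCNE1 at 1.65 or above. CDK4 ran from 1.09 to 1.42 and stayed past 2-fold, and CDK6 ran from 0.66 to 0.99 and stayed short of it. CCNE2 ran from 0.98 to 1.84, and fell short of 2-fold only with the mean over its 2 probes.

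**Figure D5:**
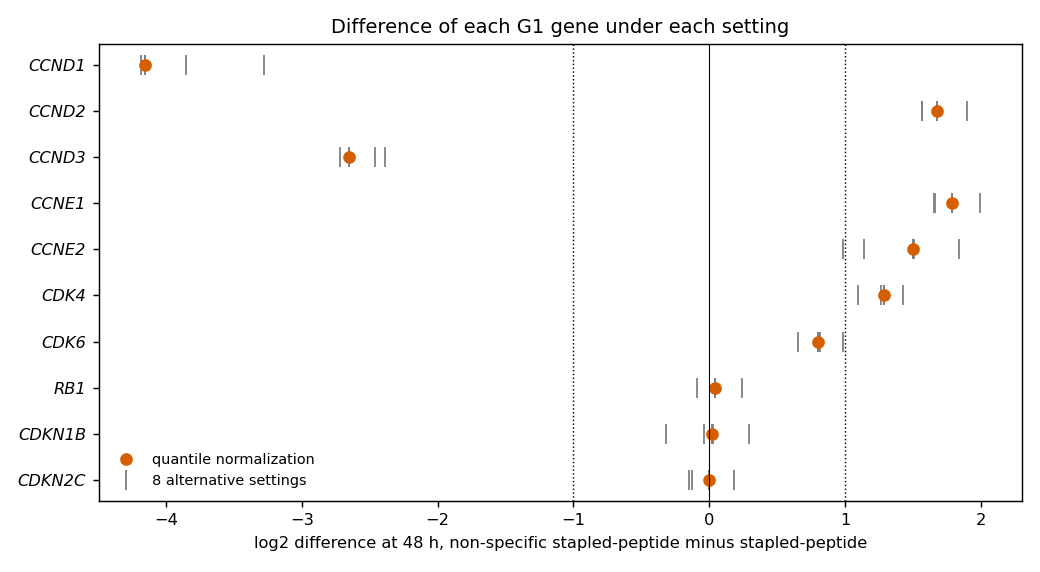
Log2 difference between the peptides at 48 h (x axis, NS minus ST) of each of the 10 G1 genes under quantile normalization (filled points) and under the alternative settings (grey bars), with dotted lines at 2-fold. CCND1, CCND3, CCND2, CCNE1 and CDK4 stay past 2-fold under each setting drawn, and CCNE2 reaches 0.98 with the mean over its probes.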

How the data were processed

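RNA of MCF-10A cells was hybridized to 4 Agilent arrays, 1 per condition, all on 1 slide and in 1 scan. The deposited spot intensities are linear, background-subtracted signals that the authors extracted with Feature Extraction (version 10.7.1.1 in the file headers, 9.5 in the submitters' processing notes); they were not normalized between arrays. Quantile normalization across the chips, which the study's methods name, was applied here. The deposited combined table served as an alternative, and it holds the same intensity values for probes with a single spot. For probes with several spots it differed from the mean log2 signal by up to 0.98, and how it combines spots was not established.

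Control spots and 343 to 438 outlier-marked spots of 58717 per array were left out, the spots of each probe were averaged as log2 signals, and 50590 probes were quantile-normalized. Of these, 28168 (55.7%) had a symbol through RefSeq accessions. Probe positions are not printed, since the probe grid used an older build. On the arrays, 62.5% to 65.7% of spots were well above background. Precision is limited by the number of arrays. Where a probe was dim on 1 of the arrays compared, its signal there was raised to the lowest signal well above background, and the difference is a bound. A gene took the value of its probe with the highest mean over the 4 arrays. No array was left out in turn, since each condition has 1.

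The members and gene lists were chosen with earlier results of these data known. Genes named are all members with every probe, the 4 largest differences in each direction at 48 h in the lists of regulators and E2F targets, any of these past 2-fold at 24 h, and the largest of each marker list; exceptions are marked, and 1 gene that the rule names is not reported here. There were 9 alternatives set beforehand and 1 added. Python 3.11.15 with numpy 2.4.6 and pandas 2.3.3 served for all steps but normexp (offset 50), which was run by limma 3.58.1 in R 4.3.3. The normalization, the differences with their 2-fold call and the bound for dim probes were tested on simulated data, and the other steps were not.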

Additional observations from a re-analysis of the deposited data

Results flagged for a closer look

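Several members had values of opposite sign in one comparison and its counterpart, each resting on 1 array per condition, so that the contrast between the comparisons was not tested. CCND1 differed by 0.060 between the peptides at 24 h and by -4.15 at 48 h. CDK4 changed by -0.11 from 24 h to 48 h with ST and by 1.15 with NS. For CCNE2 the same changes were -0.053 and 1.29. The first value of CCND1, CDK4 and CCNE2 was small: 67.9%, 47.0% and 69.5% of genes reached that size in the same comparison. RB1 differed between the peptides by -0.086 at 24 h and by 0.043 at 48 h, and CDKN2C by 0.027 and -0.0030, values far below the SD of 0.34 that the difference at 24 h had over all genes. At 48 h the sign of both values changes with the scaling. At 24 h RB1 was below 0 under each setting run, whereas CDKN2C was -0.0021 without normalization. The contrasts of CCND1, CDK4 and CCNE2 all rest on the NS array at 48 h.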

How the results depend on the processing

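Of 340 values of the members under the alternatives, 335 moved by less than 0.34, the SD of the 24 h differences over genes, 5 moved further, and 0 values past 2-fold changed sign. Many of these values could not move, so the count overstates stability. The settings for dim probes cannot change members that are well above background everywhere. The mean over probes can change only the 2 members with 2 probes, and 0 spots of members were outlier-marked. The CCND1 difference at 48 h was -3.28, and its change over time with NS -3.38, under the normexp background correction. CCNE2 at 48 h was 1.84 without normalization, 1.14 under normexp and 0.98 with the mean over its probes, and the cause was not tested. A threshold of 4-fold in place of 2-fold left 2 members at 48 h and 2 over time with NS. The median of the other G1/S regulators at 48 h ran from 0.89 to 1.22 and that of the E2F targets from 2.24 to 2.66. Without normalization the median of all genes at 48 h was 0.26 in place of 0.03, and over time with ST it was -0.23. Over time with NS, scaling to the 75th percentile put CDK4 at 0.98, and the mean over probes put CCNE2 at 0.98, each short of 2-fold and leaving 5 of the 10 members. The share of all genes past 2-fold at 48 h was 27.7% under normexp and 43.8% without the bound for dim probes. Quantile normalization over the 3 arrays other than NS at 48 h, chosen after seeing the data, moved no member. No paired analysis was possible because each condition has 1 array, so that differences between cultures cannot be told apart from those between the peptides, and spot errors of 10.0% to 14.6% of the signal cover 1 array only.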
